A study of Mus musculus with 72 samples.

Results

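The 10 genes described here mark the alveolar type 1 cell, the thin cell across which the lung exchanges gas. They are Ager, Hopx, Aqp5, Pdpn, Cav1, Akap5, Rtkn2, Clic5, Gprc5a and Emp2. They were taken as a list of gene names, from 36047 genes in the lung table and 36048 rows in the tumour table. No cut on a measured value was used, but earlier results of these data were known when the list was chosen. Each name matched 1 identifier of GENCODE M21. A gene was tested in a tissue where 4 or more of the 12 libraries had a value of 10 or above. That left 10 members in lung, 10 in tumour, 10 in thymus, 9 in spleen (without Aqp5), 8 in liver and 8 in kidney (both without Aqp5 and Rtkn2).

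RNA was sequenced from lung tumours and from lung, liver, kidney, spleen and thymus of mice of the genotype EGFR DEL19. In this model a human EGFR with an activating deletion drives spontaneous lung tumours, and every animal, controls included, had received doxycycline for 25 days. The circuits, DNA constructs with a CMV promoter given into a vein at 10 mg/kg every 2 days for 7 injections, were CMV-scrR with a scrambled RNA as the control, CMV-siRE with an siRNA to lower EGFR, and CMV-GE11-siRE, in which that siRNA is joined by GE11, a peptide that binds EGFR. Tissues were taken on day 14, and each circuit had 4 libraries per tissue, 72 in all. The strain, sex and age of the mice, the promoter of the transgene and whether the 4 libraries of a group came from separate animals are not stated in the labels. P-values therefore measure the spread between these libraries, which may be technical.

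The alveolar surface is covered mostly by type 1 cells, which are broad and flat and share a basement membrane with the capillaries. Type 2 cells make surfactant and can divide and turn into type 1 cells, a step that involves the factors NKX2-1, YAP and TAZ. Tumours of this kind usually keep features of type 2 cells. Most of the members encode proteins of the type 1 cell's membrane: a receptor (Ager), a water channel (Aqp5), a mucin-like glycoprotein (Pdpn), a coat protein of membrane pits called caveolae (Cav1) and membrane proteins of other kinds (Clic5, Gprc5a, Emp2). Of the others, Akap5 encodes a scaffold for protein kinase A and Hopx a small homeodomain protein that does not bind DNA, and Rtkn2 is the remaining member.

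The members lie at separate places in the genome (GRCm38, GENCODE M21). Ager is at chr17:34597862-34600936 on the plus strand, Hopx at chr5:77086988-77115121 on the minus strand, Aqp5 at chr15:99590782-99594829 on the plus strand, Pdpn at chr4:143267431-143299564 on the minus strand and Cav1 at chr6:17306335-17341452 on the plus strand. Akap5 is at chr12:76324891-76334153, Rtkn2 at chr10:67979570-68059740, Clic5 at chr17:44188584-44280172 and Gprc5a at chr6:135065651-135084709, all on the plus strand, and Emp2 is at chr16:10281749-10313968 on the minus strand. All are protein-coding genes. An antisense gene, Hopxos, shares 412 of the 1516 exon bases of Hopx, and Gm16212 shares 216 of the 5547 exon bases of Rtkn2 on the opposite strand. Whether the counting used strand is not stated in the labels, so reads of these pairs cannot be told apart.

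The 250 bases before the annotated start are shown for 4 members that passed the test in tumours, where Ager was higher with CMV-GE11-siRE and Hopx, Akap5 and Cav1 were lower on the deposited scale. They are from the RefSeq promoter table (GRCm38.p6), 5′ to 3′ along the gene, and none overlaps an exon of GENCODE M21. The windows are chr17:34597600-34597849 (plus strand) for Ager, chr5:77115124-77115373 (minus strand) for Hopx, chr12:76324641-76324890 (plus strand) for Akap5 and chr6:17306085-17306334 (plus strand) for Cav1. Capitals mark a match to 1 of the motifs described after them.
Ager: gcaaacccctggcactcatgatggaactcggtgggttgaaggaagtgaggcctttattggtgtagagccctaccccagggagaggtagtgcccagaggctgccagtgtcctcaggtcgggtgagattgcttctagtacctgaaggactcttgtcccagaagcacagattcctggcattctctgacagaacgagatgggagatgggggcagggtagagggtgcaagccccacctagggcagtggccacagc
Hopx: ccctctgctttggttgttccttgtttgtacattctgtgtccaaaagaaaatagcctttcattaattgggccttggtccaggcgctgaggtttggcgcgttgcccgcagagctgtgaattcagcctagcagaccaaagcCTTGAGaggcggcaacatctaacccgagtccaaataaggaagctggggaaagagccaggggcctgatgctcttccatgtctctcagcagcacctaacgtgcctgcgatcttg
Akap5: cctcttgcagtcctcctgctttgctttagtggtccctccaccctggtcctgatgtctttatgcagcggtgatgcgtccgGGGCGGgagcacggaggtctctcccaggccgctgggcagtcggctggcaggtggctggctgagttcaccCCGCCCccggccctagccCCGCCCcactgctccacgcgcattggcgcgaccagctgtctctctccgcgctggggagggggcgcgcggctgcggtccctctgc
Cav1: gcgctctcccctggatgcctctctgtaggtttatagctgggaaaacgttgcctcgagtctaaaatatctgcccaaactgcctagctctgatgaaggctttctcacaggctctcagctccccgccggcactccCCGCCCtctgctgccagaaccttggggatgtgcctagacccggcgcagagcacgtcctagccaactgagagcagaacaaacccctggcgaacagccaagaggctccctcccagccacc

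The motifs were GGAATG for TEAD factors, the partners of YAP and TAZ, CTCAAG for NKX2-1, CCGGAA for ETS factors and GGGCGG for KLF and SP factors, each on both strands. No pair of these motifs overlapped in the windows shown. Of the members, 8 had an entry in the table, with 10 windows between them. TEAD letters were in 0 of the 10 windows and in 12.6% of the 32851 windows of all genes. ETS letters were in 0 of 10 against 12.03%. NKX2-1 letters were in 1 of 10, the Hopx window above, against 13.3%. KLF and SP letters were in 5 of 10 against 32.7%, with 3 matches in Akap5, 1 in Cav1 and none in Ager. A match is a run of letters and no measured site.

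Across the series, the approximate depth of a library was 12.15 M to 20.88 M reads. Normalized totals spanned 5.87 M to 43.81 M among tumours but only 16.9 M to 21.38 M among the organs. The tumours also differed in the share of the column total held by mitochondrial genes. Its mean was 68.6% ± 3.77 in controls (SD, n = 4), 60.1% ± 11.6 under CMV-siRE and 20.6% ± 12.5 under CMV-GE11-siRE, while lung libraries held 1.74% to 2.79%. Human EGFR, the targeted transcript, ranged in tumours from 1992 to 4025 in controls, from 452 to 1324 under CMV-siRE and from 39.2 to 132 under CMV-GE11-siRE, with no overlap between circuits on the deposited scale. By column total the controls stayed above both (87.04 to 109 CPM), while CMV-siRE (16.4 to 73.0) and CMV-GE11-siRE (6.14 to 19.9) overlapped. In kidney and thymus, CMV-GE11-siRE replicate 4 stood apart. It lay outside the range of the other 11 libraries for 5 of the 10 members in kidney (1 above, 4 below) and for 9 in thymus (5 above, 4 below). Its mitochondrial share was 3.69% in kidney, against 9.60% to 12.66% in the other libraries, and 0.56% in thymus, against 1.64% to 1.92%. The share of all genes outside the range was not counted, so these counts are not read as a trait of the members.

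Among the organs, all 10 members had their highest level in lung. To set tissues side by side, values were rescaled to a common column total of 1 M (CPM) in the 4 CMV-scrR libraries, with the limit that each tissue's table was normalized separately. In lung, Ager, the receptor for advanced glycation end products, had 1848 to 2033 CPM, and the next organ, thymus, had 9.02 to 12.98. Lung means exceeded those of the next organ 688-fold for Aqp5 (thymus), 167-fold for Ager (thymus), 138-fold for Gprc5a (thymus), 73.2-fold for Akap5 (spleen) and 55.8-fold for Emp2 (liver). The ratio was smaller for Hopx (20.4-fold over liver), Cav1 (19.0-fold over kidney), Pdpn (12.5-fold over kidney), Rtkn2 (7.44-fold over thymus) and Clic5 (6.23-fold over kidney). No organ's CPM overlapped with lung for any member.

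Several members had a level of their own outside the lung. Clic5, known also from podocytes of the kidney, had 161 ± 13.1 CPM (SD, n = 4) in kidney and 87.9 ± 16.0 in thymus, and the order lung, kidney, thymus, spleen, liver had no neighbours that overlapped. Rtkn2 had 29.9 ± 6.30 CPM in thymus but at most 1.20 in spleen, kidney or liver. Hopx had 30.9 ± 7.00 in liver, above spleen (18.02 ± 1.98), while kidney (4.24 ± 1.30) and thymus (3.92 ± 0.55) overlapped. Cav1, which endothelium also makes, had 63.0 ± 5.78 in kidney, 31.6 ± 2.13 in spleen and 16.1 ± 2.61 in thymus. Aqp5 was near 0 outside the lung: its highest control mean was 0.34 CPM in thymus, and it was listed at 0 in 2 kidney libraries and 1 liver library. For Emp2, liver overlapped with spleen, spleen with thymus and thymus with kidney.

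**Figure D1:**
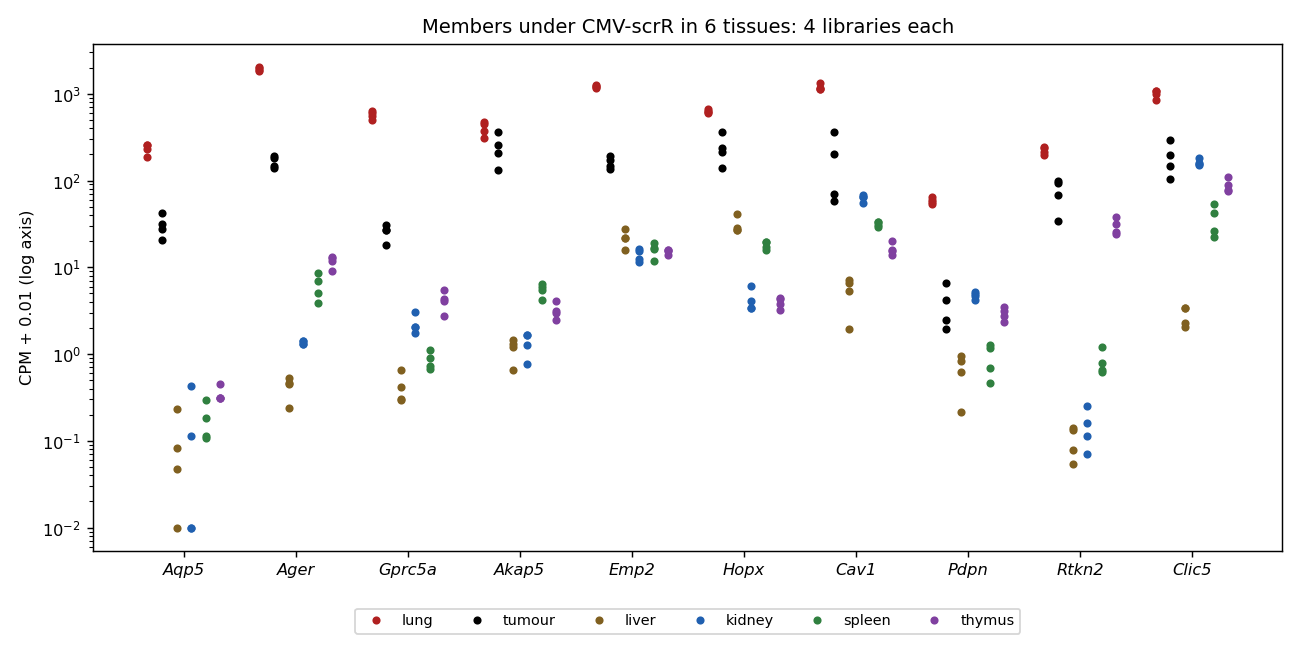
Level of each member in CPM + 0.01 (log axis) in the 4 CMV-scrR libraries of 6 tissues, 1 point per library, with members ordered by the ratio of lung to the next organ. Lung points lie above those of the other organs for all 10 members, by 688-fold for Aqp5 and 6.23-fold for Clic5. Tumour means in CPM lie below lung means, with the large mitochondrial share of the tumours in their total.

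Per kilobase of merged exon, the lung levels were ordered Ager (904 CPM per kb), Hopx (416), Cav1 (348), Gprc5a (277), Emp2 (140), Clic5 (114), Aqp5 (89.3), Akap5 (58.5), Rtkn2 (40.1) and Pdpn (32.5). Pdpn, the podoplanin gene long used to mark type 1 cells, was the lowest of the 10 on this scale. In control tumours the mean CPM was below lung for all 10, from 1.66-fold for Akap5 and 2.65-fold for Hopx to 15.5-fold for Pdpn and 22.4-fold for Gprc5a. The lung tables and tumour tables were normalized separately, and the mitochondrial share above is part of the denominator of these ratios. That share was 68.6% in control tumours and 1.87% in control lung, which lowers the CPM of all other genes in tumour. The smaller ratios, such as those of Akap5 and Hopx, therefore do not show a lower level relative to the other genes.

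In tumours, CMV-GE11-siRE split the members on the deposited scale. Gprc5a, Aqp5 and Ager rose against CMV-scrR, Akap5, Cav1, Hopx and Clic5 fell, and Rtkn2, Emp2 and Pdpn did not pass the test. Scaled to the column total instead, 6 members passed as higher and 0 as lower, with Hopx and Clic5 turned in sign. When the mitochondrial share was added to the fit, 0 passed. The deposited scale gave 7 of 10 calls by limma on log2(value + 1) at an adjusted p under 0.05. Among all 14044 genes tested in this comparison 41.9% were called, 22.1% higher and 19.8% lower. The count of members is therefore read beside a comparison in which many genes differed. The median log2 difference of the members was -0.56 and that of all genes 0.05. In bulk tissue, fewer cells of a type and less RNA per cell cannot be told apart.

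Gprc5a encodes an orphan receptor induced by retinoic acid, and mice without it are prone to lung tumours. Its normalized values were 823, 387, 1006 and 994 in the CMV-scrR tumours, 3088, 1630.1, 1002 and 3652 with CMV-siRE, and 5764, 4031, 3944 and 4266 with CMV-GE11-siRE. All 4 CMV-GE11-siRE tumours were above all others. The log2 difference from CMV-scrR was 2.56 ± 0.39 (SE; 5.91-fold, adjusted p = 0.000645).

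Aqp5, the water channel, had values of 858, 439.8, 1024 and 1560.0 with CMV-scrR, 5397, 1599, 1597 and 2724 with CMV-siRE, and 4609, 3933, 4006 and 4314 with CMV-GE11-siRE. On the deposited scale every control lay below every tumour given either siRNA circuit. With CMV-GE11-siRE the log2 difference was 2.25 ± 0.40 (4.77-fold, adjusted p = 0.00107).

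Ager had values of 4928, 2978, 5502 and 7149 with CMV-scrR, 11118, 8261, 5335 and 25940 with CMV-siRE, and 18271, 12041, 12958 and 15478 with CMV-GE11-siRE. The CMV-GE11-siRE and control tumours did not overlap, and CMV-siRE tumours ran from within the range of the controls to above all others. Its log2 difference with CMV-GE11-siRE was 1.56 ± 0.41 (2.96-fold, adjusted p = 0.00872).

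Akap5 had the largest difference downward. Its values were 6976, 7640.0, 4925 and 7681 with CMV-scrR, 1133, 2182.5, 4101.5 and 4420.1 with CMV-siRE, and 1334, 1669.9, 1552 and 1016 with CMV-GE11-siRE. Controls were above all 8 other tumours on the deposited scale. The log2 difference with CMV-GE11-siRE was -2.29 ± 0.36 (4.89-fold lower, adjusted p = 0.000744).

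Cav1 had 5515, 7674, 2593 and 2124 with CMV-scrR, 752, 2325, 1449.8 and 5119.8 with CMV-siRE, and 1085, 865, 787 and 755 with CMV-GE11-siRE. The controls themselves fell into a higher and a lower pair of libraries, all above the CMV-GE11-siRE tumours on the deposited scale. The log2 difference was -2.18 ± 0.50 (4.52-fold lower, adjusted p = 0.00453).

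Hopx had 5754, 7615, 5238 and 8751 with CMV-scrR, 1493, 4695, 3745 and 8216 with CMV-siRE, and 1807, 1669, 1840.1 and 1714 with CMV-GE11-siRE. The last 4 were close together (SD 79.4), and CMV-siRE spanned from below them to the upper controls. With CMV-GE11-siRE the log2 difference was -1.93 ± 0.39 (3.81-fold lower, adjusted p = 0.00202).

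Clic5, a protein that ties the membrane to the cytoskeleton, had 5278, 6131, 3885 and 5386 with CMV-scrR, 1558, 4487, 3608 and 6522 with CMV-siRE, and 2402, 2458, 2244 and 1823 with CMV-GE11-siRE. It differed by -1.20 ± 0.34 on the log2 scale with CMV-GE11-siRE (2.30-fold lower, adjusted p = 0.0132). Here too the controls and the CMV-GE11-siRE tumours did not overlap on the deposited scale.

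Rtkn2 ranged from 1280 to 2525 with CMV-scrR and from 950.0 to 1278 with CMV-GE11-siRE, a log2 difference of -0.82 ± 0.36 that missed the threshold (adjusted p = 0.0811). It passed in a fit of only the 8 libraries compared (adjusted p = 0.0130), where 47.8% of all genes were called, and without CMV-scrR replicate 3 (log2 -1.04, adjusted p = 0.0429), where 37.1% were. Emp2 ranged from 4032 to 5495 in controls and from 3285 to 4543 with CMV-GE11-siRE (log2 -0.30 ± 0.28, adjusted p = 0.418). Pdpn was low, at 72.6 to 139 in controls and 104 to 187 with CMV-GE11-siRE (log2 0.41 ± 0.53, adjusted p = 0.549). On the deposited scale, all 4 libraries with CMV-GE11-siRE lay on 1 side of all 4 controls for 8 members, 3 above and 5 below, against 45.2% of all genes tested. In CPM, the controls and the CMV-GE11-siRE tumours overlapped for Akap5, Cav1, Hopx and Clic5.

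**Figure D2:**
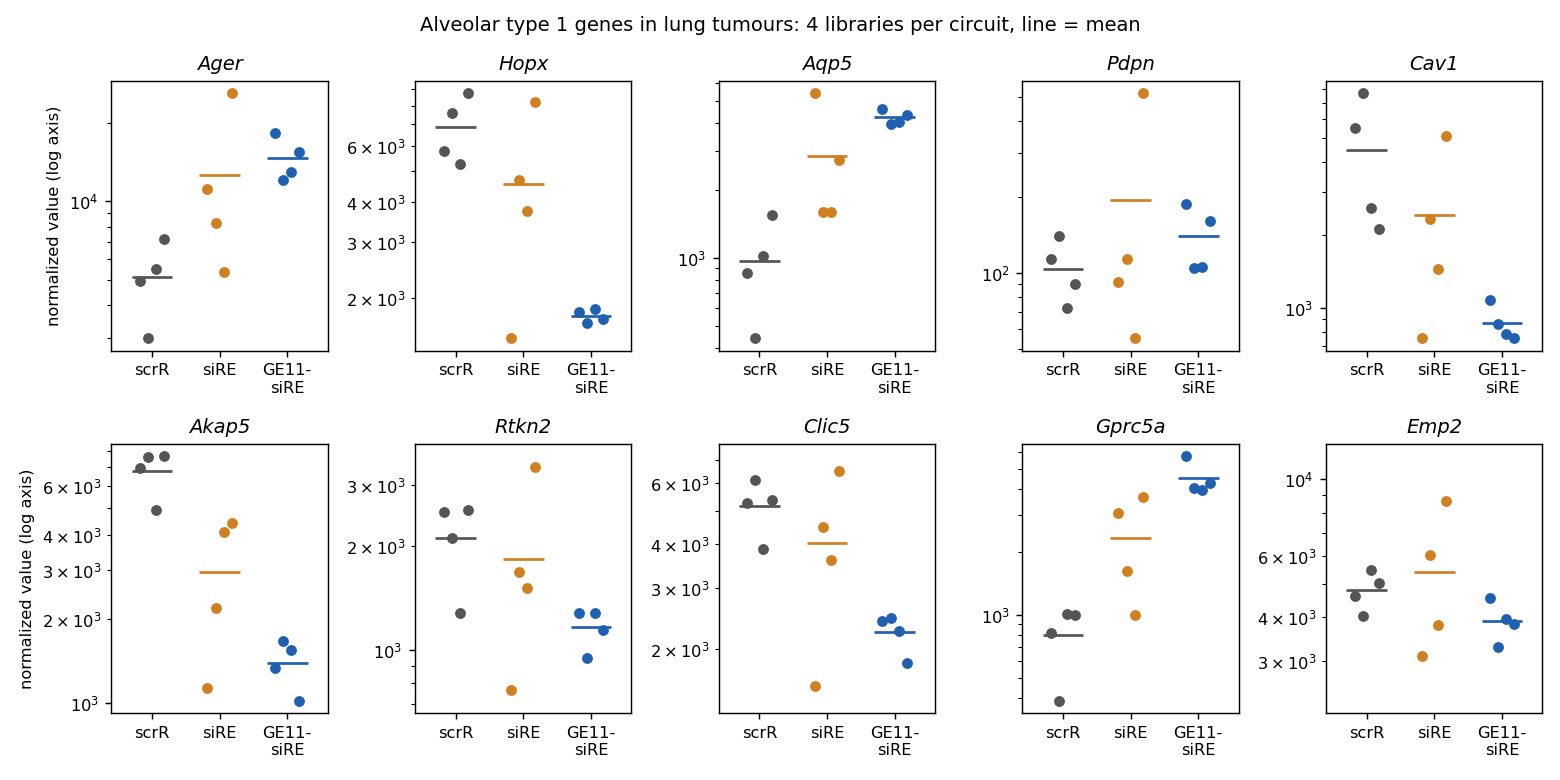
Normalized value (log axis, a scale of its own in each panel) of the 10 members in tumours, 4 libraries per circuit as points and their mean as a line. Gprc5a, Aqp5 and Ager are higher with CMV-GE11-siRE than with CMV-scrR, Akap5, Cav1, Hopx and Clic5 are lower on the deposited scale. CMV-siRE points are wide apart: for Ager, Cav1, Hopx and Clic5 at least 1 lies within the range of the controls and 1 beyond all CMV-GE11-siRE points, for Aqp5 they lie above all controls and for Akap5 below all controls, and for Gprc5a they lie below all CMV-GE11-siRE points.

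Of the members that fell, Hopx and Clic5 changed sign by column total, while Akap5 and Cav1 stayed negative. Both other scalings raised the median of all genes, so the members that rose kept their direction by construction. With values scaled to the column total, Gprc5a (log2 4.66), Aqp5 (4.35) and Ager (3.66) passed as higher, as did Pdpn (2.49), Emp2 (1.80) and Rtkn2 (1.27), and no member passed as lower. Akap5 (-0.20, adjusted p = 0.62), Cav1 (-0.08, adjusted p = 0.898), Hopx (0.16, adjusted p = 0.734) and Clic5 (0.89, adjusted p = 0.0600) did not pass on that scale, and the signs of Hopx and Clic5 turned. On it 81.0% of all genes were called higher and 0.413% lower, and the median difference of all genes was 2.11. Scaled to the total without mitochondrial genes, the median of all genes was 0.80, with 43.2% called higher and 4.34% lower. There Gprc5a (3.32), Aqp5 (3.01) and Ager (2.32) passed as higher and Akap5 (-1.53) and Hopx (-1.17) as lower, while Cav1 (-1.42, adjusted p = 0.0555) and Clic5 (-0.44) did not pass.

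A scaling shifts all genes of a library alike, so a member's distance from the median of all genes is nearly the same under each by construction. On the deposited scale that distance was 2.51 log2 units for Gprc5a, 2.20 for Aqp5 and 1.51 for Ager, and -2.34 for Akap5, -2.23 for Cav1, -1.98 for Hopx and -1.26 for Clic5. In CPM, Hopx had 141 to 360 with CMV-scrR and 176 to 308 with CMV-GE11-siRE, whereas Ager had 141 to 194 and 1270 to 3115. The mitochondrial share of the libraries goes with the circuit, and share and circuit cannot be told apart. With that share as a covariate, limma called 0 of the 14044 genes and 0 members.

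**Figure D3:**
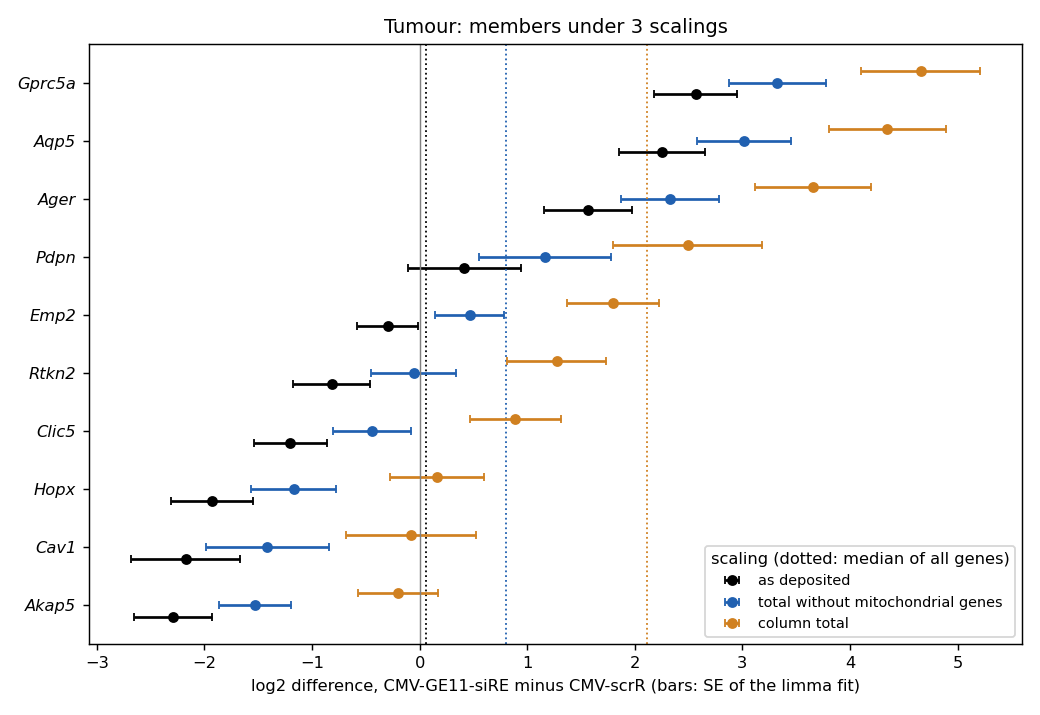
Log2 difference between CMV-GE11-siRE and CMV-scrR tumours for each member, with the SE of the limma fit as bars, under 3 scalings; dotted lines mark the median of all genes under each scaling (0.05, 0.80 and 2.11). Each scaling moves all members by about the same amount, so their order and their side of the dotted line are fixed by construction, while their side of 0 is not: Hopx and Clic5 are below 0 as deposited and above it by column total.

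CMV-siRE gave 0 calls among the members against CMV-scrR, where limma called 0.256% of all genes (3004 genes, and 4 members, had an unadjusted p under 0.05). The nearest were Akap5 at a log2 difference of -1.37 ± 0.36 (adjusted p = 0.0761), Aqp5 at 1.49 ± 0.40 and Gprc5a at 1.46 ± 0.39 (adjusted p = 0.0766 for both). Ager differed by 1.12 ± 0.41, Cav1 by -1.04 ± 0.50, Hopx by -0.80 ± 0.39 and Clic5 by -0.51 ± 0.34. Both siRNA circuits were compared with the same 4 control libraries. On the deposited scale, libraries of the circuits did not overlap for 2 members, Aqp5 and Akap5, against 7.78% of all genes. Without CMV-siRE replicate 3, Gprc5a (1.81), Aqp5 (1.70), Ager (1.45) and Akap5 (-1.59) passed, and the share of all genes called went up to 5.68%. Aqp5 also passed without CMV-siRE replicate 2 (1.70), where 4.37% of all genes were called, or without CMV-scrR replicate 4 (1.76), where 2.03% were.

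Between CMV-GE11-siRE and CMV-siRE, limma called 0 members and 0.0214% of all genes (3677 genes, and 4 members, had an unadjusted p under 0.05). Hopx differed by -1.13 ± 0.39 (adjusted p = 0.1005), Gprc5a by 1.10 ± 0.39 (0.108) and Akap5 by -0.92 ± 0.36 (0.135). Gprc5a was the 1 member whose libraries did not overlap on the deposited scale, against 13.1% of all genes. Replicate 1 of CMV-siRE decided this comparison. Its values of Hopx (1493), Clic5 (1558) and Cav1 (752) were below all 4 CMV-GE11-siRE tumours, its Akap5 (1133) was below 3 of them, and its Aqp5 (5397) was above all 4. Without it, 6 members passed: Aqp5 (1.14) and Gprc5a (1.29) as higher and Hopx (-1.58), Cav1 (-1.58), Akap5 (-1.31) and Clic5 (-1.09) as lower, and 22.6% of all genes were called. Under column total scaling 6 members passed as higher, a smaller share than the 76.8% of all genes that did. Without mitochondrial genes in the total 1 did (Gprc5a, 1.69), against 13.2% of all genes. The spread within CMV-siRE was wide: the coefficient of variation was 46.4% to 111% over the members, against 13.004% to 58.2% with CMV-scrR and 4.52% to 29.7% with CMV-GE11-siRE.

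Ratios between genes inside a library do not depend on the scaling. The 7 members called above were grouped by direction after their values were seen, so these ratios are a description. The log2 ratio of the geometric mean of Ager, Aqp5 and Gprc5a to that of Cav1, Akap5, Clic5 and Hopx was -1.95, -3.18, -1.17 and -1.24 in the CMV-scrR tumours. It was 2.26, -0.21, -0.55 and 0.11 with CMV-siRE and 2.31, 1.88, 1.98 and 2.40 with CMV-GE11-siRE. In lung the 12 libraries lay between -0.54 and 0.11. The control tumours were thus below lung in this ratio and the CMV-GE11-siRE tumours above it.

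Set against Epcam, a general epithelial adhesion gene, Ager had a geometric mean ratio of 15.5 in controls, 21.2 under CMV-siRE and 14.8 under CMV-GE11-siRE. Hopx was 21.1, 7.64 and 1.79 times Epcam in the same order. The log2 ratio of Ager, Aqp5 and Gprc5a to the 6 epithelial genes was 2.51 ± 0.17 (SD, n = 4), 2.71 ± 0.56 and 2.63 ± 0.13, and to the 11 type 2 genes -0.89 ± 0.31, -0.74 ± 0.51 and -0.995 ± 0.29. All 10 members against the type 2 genes gave -0.31 ± 0.57, -1.47 ± 1.14 and -2.73 ± 0.22. Cav1, Akap5, Clic5 and Hopx against the 10 endothelial genes gave 3.27 ± 0.70, 3.21 ± 1.08 and 2.66 ± 0.18. For Ager, Aqp5 and Gprc5a, the circuit means over the epithelial and over the type 2 genes differed from each other by less than the largest SD within a circuit, that of CMV-siRE. The SD of the other circuits was smaller (0.17 and 0.13 over the epithelial genes, 0.31 and 0.29 over the type 2 genes). This is therefore a description, and whether these members follow the epithelial genes was not tested. Single genes did shift between controls and CMV-GE11-siRE. The log2 ratio of Gprc5a to Ager was -2.71 ± 0.23 and -1.70 ± 0.12, and that of Ager to the type 2 gene Sftpc -3.58 ± 0.58 and -4.65 ± 0.22. Neither overlapped, while the ratio of Ager to Epcam did.

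**Figure D4:**
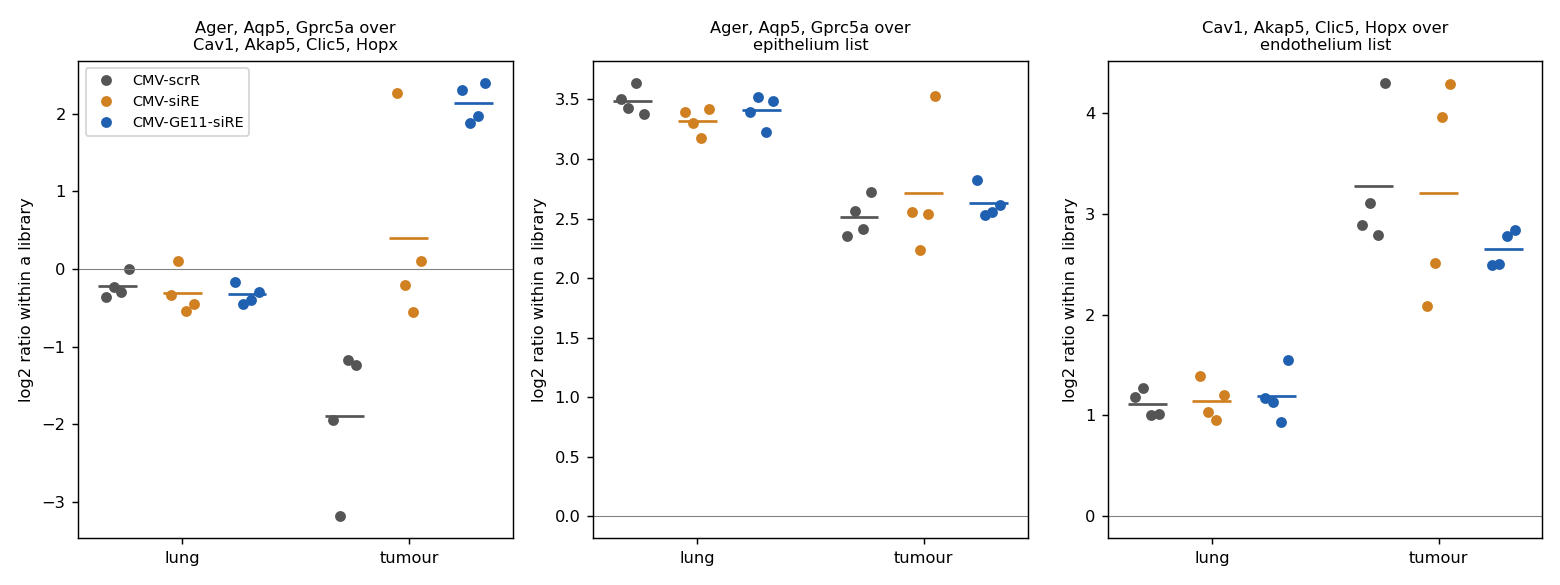
Log2 ratio of geometric means within each library, 1 point per library with the mean as a line, in lung and tumour. Left, the 3 members that rose over the 4 that fell, from -3.18 to -1.17 in control tumours and 1.88 to 2.40 with CMV-GE11-siRE; middle, the first 3 over the epithelial list; right, the last 4 over the endothelial list.

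Markers of other cell types moved with the same comparison. All 11 type 2 genes rose under CMV-GE11-siRE relative to controls, led by Abca3 (2.95), Slc34a2 (2.77) and Lpcat1 (2.74), and their median was above 0 under each scaling (2.32, 3.08 and 4.41). All 6 epithelial genes rose, led by Cldn7 (2.93), Cldn3 (2.64) and Esrp1 (1.71). Both lists passed in full under each scaling. The other 2 scalings raised the median of all genes, so this direction was kept by construction. Of all genes, 22.1% were called higher as deposited, 43.2% without mitochondrial genes and 81.0% by column total. Of 10 endothelial genes 4 fell and none rose as deposited, with Erg (-4.24), Calcrl (-1.70) and Tek (-1.50) lowest; their median was -1.09 as deposited, -0.33 without mitochondrial genes and 0.995 by column total, where it turned and 2 passed as higher and Erg alone as lower. The summed values ran from 55703 to 146037 with CMV-scrR and from 394496 to 606197 with CMV-GE11-siRE for the type 2 list, from 1175 to 2574 and from 7124 to 8490 for the epithelial list, and from 4032 to 11857 and from 2609 to 4044 for the endothelial list. No marker of these lists was at 0 in all libraries. On the deposited scale, where 19.8% of all genes were called lower, 3 of 4 genes of smooth muscle fell, 3 of 5 of macrophages, 1 of 6 of fibroblasts, 1 of 4 of lymphatic endothelium, 1 of 3 of mesothelium and 1 of 3 of podocytes. By column total 0 genes of these lists passed as lower, and 4 fibroblast, 2 macrophage, 2 podocyte and 1 mesothelial gene passed as higher. The smooth muscle and macrophage medians were -1.67 and -1.11 as deposited and 0.40 and 0.97 by column total. Of club and ciliated cells 0 of 4 and 0 of 5 passed. Genes of proteins that the liver secretes were lower in all 4 tests, with a median of -3.28 as deposited, -2.71 without mitochondrial genes and -1.67 by column total, and 2 of the 4 passed as lower on each of the other scales. They were led by the albumin gene Alb (-5.55, and -3.78 by column total, adjusted p = 0.00027), and their summed values ran from 94.4 to 1031 with CMV-scrR and from 4.83 to 16.6 with CMV-GE11-siRE. The part of these cell types in the members' differences was not tested.

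Among 16 further type 1 genes there were 7 that rose and 2 that fell as deposited, where 22.1% of all genes were called higher and 19.8% lower. The median of the 16 was 0.70, against -0.56 for the members. By column total 12 passed as higher and 0 as lower, where 81.0% of all genes were called higher and 0.413% lower. The counts of the lists that follow are read beside the same shares. Vegfa, the growth factor through which type 1 cells act on capillaries, had 293 to 831 with CMV-scrR and 3606.5 to 9108 with CMV-GE11-siRE (log2 3.32 ± 0.57, adjusted p = 0.000946). Agrn, a basement membrane proteoglycan, and Mmp11, a matrix protease, both differed by 2.72. All 3 were also higher under the other 2 scalings, which raised the median of all genes, so this direction was kept by construction. Of the 16, the 2 that fell as deposited were Cryab (-1.83) and Cav2 (-1.46), named here after their values were seen. Without mitochondrial genes Cryab passed as lower (-1.07) and Cav2 did not pass (-0.70). By column total neither passed (0.26 and 0.63). Of 9 regulators, 3 rose and 2 fell as deposited, and by column total 8 passed as higher and 0 as lower. Wwtr1, which encodes TAZ, had 2254 to 3099 with CMV-scrR and 302 to 523 with CMV-GE11-siRE (-2.76 ± 0.29, adjusted p = 0.000307), and by column total its difference was -0.67 and did not pass. The other that fell, Yap1 (-1.004, adjusted p = 0.00232), which encodes YAP, passed as higher by column total (1.09, adjusted p = 0.0189) and did not pass without mitochondrial genes (-0.24, adjusted p = 0.453). It is named here after its values were seen. Nkx2-1, the lung lineage factor, had 543 to 2230 and 4794 to 6334 (2.15 ± 0.38, adjusted p = 0.00112), and Foxa2 differed by 1.35. Among 7 YAP and TAZ targets, Ankrd1 (-2.30) and Lats2 (-1.22) fell on the deposited scale only and Ajuba (0.94) rose. Of 8 genes of cells between type 2 and type 1, the keratins Krt18 (1.03) and Krt8 (0.80) rose and none fell. No gene of these lists was called in the other 2 tumour comparisons.

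In lung, no member was called in any comparison. Limma called 1.41% of 16165 genes for CMV-siRE against CMV-scrR, 0.0% for CMV-GE11-siRE against CMV-scrR and 0.0619% between the siRNA circuits, and 2847, 1277 and 1612 genes had an unadjusted p under 0.05. Members with an unadjusted p under 0.05 were Rtkn2 and Emp2 in the first, none in the second, and Akap5, Emp2 and Rtkn2 in the third. The log2 differences of the members were between -0.51 and 0.29, between -0.15 and 0.14 and between -0.15 and 0.37. Lung libraries were also closer to each other than tumours, with a coefficient of variation of 3.30% to 24.2% over members and circuits.

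Rtkn2 came nearest. Its lung values were 4967, 4783, 4470.2 and 3876 with CMV-scrR, 3817, 2635, 2845 and 3463 with CMV-siRE, and 3869, 4214, 3741 and 4394 with CMV-GE11-siRE. The CMV-siRE libraries lay below all controls, at a log2 difference of -0.51 ± 0.12 (adjusted p = 0.0512). It passed without CMV-scrR replicate 4 (-0.59, adjusted p = 0.0392) and without CMV-siRE replicate 1 (-0.60, adjusted p = 0.0353), where 1.17% and 0.81% of all genes were called. Emp2, a small protein that crosses the membrane several times, had 25322, 25267, 24182 and 23686 with CMV-scrR and 23319, 17021, 17421 and 21495 with CMV-siRE (-0.33 ± 0.11, adjusted p = 0.158), also without overlap. These were the 2 of 10 members without overlap, against 12.5% of all genes. In the other lung comparisons 0 members were without overlap, against 4.73% and 5.15% of all genes.

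Ager in lung had 37473, 41276, 39572 and 39135 with CMV-scrR, 34729, 38234, 25622 and 33566 with CMV-siRE, and 38401, 34688, 31761 and 39584 with CMV-GE11-siRE. The groups overlapped, with log2 differences of -0.27 ± 0.13 (adjusted p = 0.296) and -0.13 ± 0.13 (adjusted p = 0.872) from the control. Hopx (0.01 with CMV-siRE, 0.03 with CMV-GE11-siRE), Aqp5 (-0.04 and -0.08) and Gprc5a (-0.15 and -0.05) had smaller log2 differences from the control. Replicate 3 of CMV-siRE was the lowest of its group for Ager, Hopx (10328), Aqp5 (3274), Pdpn (1124) and Gprc5a (8090). With CMV-siRE, Pdpn differed by 0.29 ± 0.15 and Cav1 by 0.21 ± 0.12 from the control, Akap5 by -0.30 ± 0.17 and Clic5 by -0.18 ± 0.14, and none of the 4 passed.

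**Figure D5:**
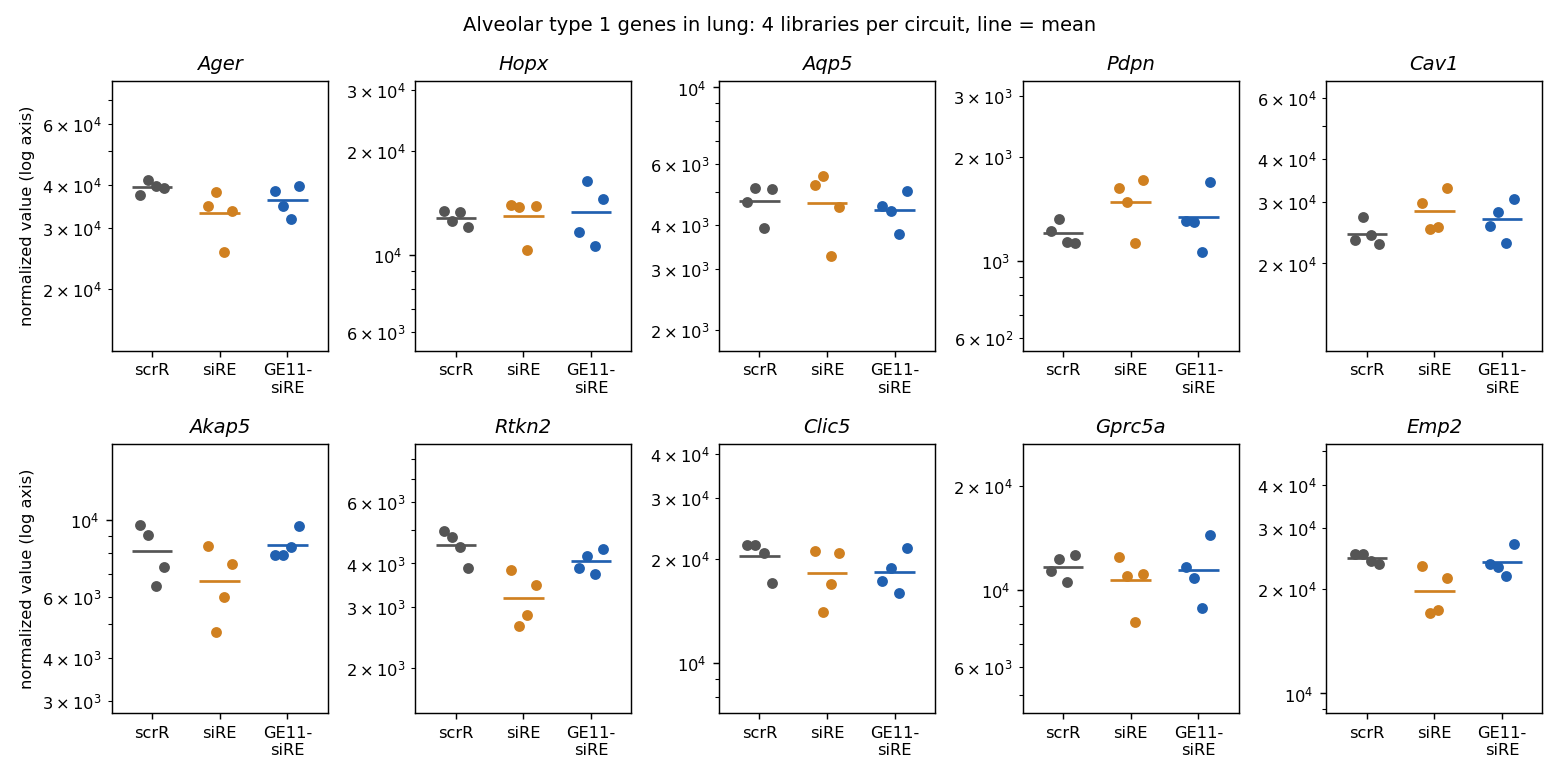
Normalized value (log axis, a scale of its own in each panel) of the 10 members in lung, 4 libraries per circuit as points and their mean as a line. The circuits overlap for every member except Rtkn2 and Emp2, whose CMV-siRE libraries lie below the CMV-scrR libraries.

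Of the 16 further type 1 genes, 0 passed in lung in any comparison. The most abundant of them, Vegfa and Timp3, were among those not called. For CMV-siRE against CMV-scrR, 3 of 5 macrophage genes were higher, Adgre1 (0.94), C1qb (0.92) and C1qa (0.71), with summed values of 6467 to 8640.0 against 4526 to 4801. Emcn among 10 endothelial genes was higher (0.81), and Ajuba among 7 YAP and TAZ targets was lower (-0.55). All 5 liver-secreted genes had every CMV-siRE library above every control, with a median of 3.31 and Apoa1 alone called (adjusted p = 0.0212), and their summed values were 177 to 646 against 39.7 to 87.9. The part of these cells in the members' values was not tested.

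The genes whose pattern was most like that of Ager, by the root mean square difference of centred log2 values over 12 libraries, were Prss8 (0.071), Gsn (0.0759) and Cryab (0.0826) in lung, where Ager's own spread on that measure was 0.182. In tumour they were Vsig10 (0.313), Slc7a5 (0.316) and Fads3 (0.322), beside 0.867 for Ager. Among the members, Gprc5a was nearest to Ager in both tissues (0.13 in lung, 0.478 in tumour), followed by Aqp5 (0.145 and 0.566). Many other genes were nearer: with Ager itself as rank 1, Gprc5a ranked 79 in lung and 101 in tumour, and Aqp5 229 and 425. Cav1 (1.75) and Akap5 (1.76) were the members farthest from Ager in tumour. The 12 tumour libraries span the circuits, so the order there partly repeats the calls above.

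In the 4 other organs, 2 of the 105 tests of a member were called, both in spleen, and 11 had an unadjusted p under 0.05. The numbers of all genes at that level are given with the background below, and the 11 are not read as a result about the members. Gprc5a in spleen had 14.9, 17.9, 21.9 and 12.4 with CMV-scrR, 3.8, 8.7, 5.9 and 8.0 with CMV-siRE, and 9.3, 3.2, 3.9 and 2.9 with CMV-GE11-siRE. The level is near the lowest tested, and CMV-GE11-siRE was lower by -1.69 ± 0.42 on the log2 scale (adjusted p = 0.0356). Cav1 in spleen had 634, 677, 664 and 554 with CMV-scrR, 340.5, 645, 338 and 530.1 with CMV-siRE, and 458, 409, 343 and 272 with CMV-GE11-siRE (-0.79 ± 0.21, adjusted p = 0.0431). For both genes, controls lay above all CMV-GE11-siRE libraries. In that comparison 3 members were without overlap, and the share of all genes without overlap in spleen was not counted. With each of the 8 libraries compared left out in turn, Cav1 passed in 1 of 8 fits and Gprc5a in 2 of 8. When the mitochondrial share was added to the fit, neither passed (adjusted p = 0.808 for Cav1 and 0.687 for Gprc5a). Gprc5a also missed the threshold when the fit held the 8 libraries compared alone (adjusted p = 0.0649).

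The background in spleen was 4.61% of 16015 genes for CMV-siRE against CMV-scrR, 5.76% for CMV-GE11-siRE against CMV-scrR and 0.112% between the siRNA circuits (3345, 3927 and 1568 genes at an unadjusted p under 0.05). In liver the same shares were 4.04%, 4.23% and 0.0069% of 14484 genes (2890, 2991 and 1110 at an unadjusted p under 0.05). There 0 of 8 members were called, with Hopx alone at an unadjusted p under 0.05 against the control. In kidney the shares were 0.0%, 0.0% and 0.0% (1486, 1218 and 599 genes at an unadjusted p under 0.05). In thymus they were 0.00609%, 0.0% and 0.0% (927, 1550 and 461). No member was called by limma in kidney or thymus, with or without the CMV-GE11-siRE library that stood apart. Under other settings Pdpn was called in kidney for CMV-siRE against CMV-scrR (0.68, adjusted p = 0.0398, only the 8 libraries compared) and Rtkn2 in thymus for the same circuits (-0.66, adjusted p = 0.0192, mitochondrial share as a covariate). The share of all genes called in those fits is not given here, so these calls are not read as a result about the members. In thymus the covariate was lowest, at 0.56%, in the CMV-GE11-siRE library that stood apart.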

How the data were processed

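Total RNA was extracted with TRIzol and made into Illumina TruSeq RNA libraries, per the labels. The authors deposited 1 table per tissue, whose signal values are gene counts divided by size factors. The submitters' processing notes name DESeq2, with no version or role. For the aligner, counting tool and genome build: not given in the sources used here. In each library only 50.3% to 72.6% of low values lay within 0.1 of whole multiples of the most frequent small value, so read counts were not recovered and no count model was run. Depth, taken as the column total over that small value, is approximate, and precision is given by the spread between libraries.

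Genes were named from GENCODE M21, which holds all 36047 identifiers of the lung table. The 3 circuits were compared within each tissue with limma 3.58.1 (limma-trend) in R 4.3.3 on log2(value + 1), 1 mean per circuit over 12 libraries, with no covariate. Genes were tested where 4 or more libraries reached a value of 10, and p-values are two-sided and adjusted by Benjamini-Hochberg over all of them, with a threshold of 0.05. Fold changes on the log2(value + 1) scale understate the change of low genes. The script was tested on simulated data. CPM here are values over the column total. Tables were normalized separately, so tests stay within a tissue.

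The members, the other gene lists and the motifs were chosen with earlier results of these data known. All 10 members are named. Of each other list, at most the 3 called genes with the largest difference are named, or at most the 2 most abundant where none was called, and for Ager the 3 genes nearest in pattern. Yap1, Cryab and Cav2 in tumour are named beyond that rule. Alternatives were a pseudocount of 0.1, no filter, a fit of the 8 compared libraries alone, a block for the replicate number, scaling to the column total with and without mitochondrial genes, the mitochondrial share as a covariate, and leaving out each library in turn. Leaving out organ libraries, among them the kidney and thymus libraries that stand apart, and adding the mitochondrial share in the organs were chosen after seeing the data. Libraries with the same replicate number did not deviate together: the correlations ranged from -0.28 to 0.27 over the tissues, so the numbers were not taken as pairs.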

Additional observations from a re-analysis of the deposited data

Results flagged for a closer look

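Of 60 groups of 4 libraries tested for an outlying library, 2 had one, and chance gives about 1 in 20. Hopx in lung was lowest in CMV-siRE replicate 3 (10328), below the other 3 libraries of that circuit (13773 to 13987). Pdpn in tumour was highest in CMV-siRE replicate 4 (515.7), above the other 3 (54.8 to 114).

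For 2 members every library of a circuit lay on 1 side of the control in 1 tissue and on the opposite side in another, a difference between tissues that was not tested. Akap5 with CMV-GE11-siRE against CMV-scrR was above in liver (log2 0.49, not called by limma, adjusted p = 0.351) and below in tumour (-2.29). In tumour 45.2% of all genes were without overlap in that comparison, and the share in liver and spleen was not counted. Gprc5a was above in tumour (2.56) and below in spleen (-1.69), where its values in all 12 libraries were between 2.9 and 21.9.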

How the results depend on the processing

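Read depth is approximate, members near the filter of 10, such as Gprc5a in spleen, are measured coarsely, and mitochondrial share and circuit cannot be separated in the tumours. Over the alternatives, the 7 calls in tumour for CMV-GE11-siRE against CMV-scrR numbered 7 to 8 when each library was left out in turn and came to 0 once the mitochondrial share was a covariate. With column total scaling 6 were higher and 0 lower (11377 and 58 of all genes). With scaling without mitochondrial genes 3 were higher and 2 lower (6065 and 610 of all genes). In the fit of only the 8 libraries compared, 3 were higher and 5 lower (3503 and 3206 of all genes). The 0 calls in tumour for CMV-siRE against CMV-scrR became 0 to 4 when 1 library was left out (without CMV-siRE replicate 3, 640 genes were higher and 158 lower, against 31 and 5). Between the siRNA circuits in tumour the 0 calls became 6 with column total scaling (10788 of 14044 genes called higher), 1 with scaling without mitochondrial genes (1852 higher) and 0 to 6 when 1 library was left out (without CMV-siRE replicate 1, 1579 genes were higher and 1597 lower). In lung, leaving out 1 library gave 0 to 1 calls for CMV-siRE against CMV-scrR. The 2 calls in the other organs became 0 with no filter, 0 with the replicate number as a block, 1 with column total scaling, 1 with scaling without mitochondrial genes, 1 with the mitochondrial share as an added covariate (Rtkn2 in thymus, with both spleen calls lost), and 0 to 2 when 1 library was left out. In the fit of only the libraries compared there were 2, of which Cav1 was shared and Pdpn in kidney stood in place of Gprc5a. The block changed no other count of calls among lung and tumour members.

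Signs turned for members that had not passed, except where stated. With column total scaling in tumour, log2 differences for CMV-GE11-siRE against CMV-scrR became 0.16 for Hopx and 0.89 for Clic5 (both called lower as deposited), 1.27 for Rtkn2 and 1.80 for Emp2, and Rtkn2 for CMV-siRE against CMV-scrR became 0.14. Between the siRNA circuits they became 0.48 for Hopx, 0.47 for Cav1, 0.69 for Akap5, 1.14 for Rtkn2, 0.92 for Clic5 and 1.25 for Emp2. Without mitochondrial genes in the total, Emp2 became 0.46 (CMV-GE11-siRE against CMV-scrR) and 0.22 (between the siRNA circuits), Rtkn2 0.11 (between the siRNA circuits) and Aqp5 in lung 0.0055 (CMV-siRE against CMV-scrR). Once the mitochondrial share was a covariate in tumour, Pdpn became -0.75 for CMV-GE11-siRE against CMV-scrR, and between the siRNA circuits Ager became -0.24, Aqp5 -0.14, Pdpn -0.93, Akap5 0.44 and Clic5 0.14. In lung it made Hopx -0.33 (CMV-siRE against CMV-scrR), -0.35 (CMV-GE11-siRE against CMV-scrR) and -0.0157 (between the siRNA circuits), Pdpn -0.0598 and Akap5 -0.0278 (CMV-GE11-siRE against CMV-scrR). The cause was not tested.

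With 1 library left out, lung differences for CMV-siRE against CMV-scrR ranged from -0.0297 to 0.116 for Hopx and from -0.14 to 0.12 for Aqp5. For CMV-GE11-siRE against CMV-scrR they ranged from -0.0726 to 0.134 for Hopx, from -0.0319 to 0.162 for Akap5 and from -0.166 to 0.0679 for Gprc5a. Between the siRNA circuits they ranged from -0.0825 to 0.125 for Hopx, from -0.201 to 0.0523 for Aqp5, from -0.10 to 0.10 for Clic5 and from -0.0289 to 0.214 for Gprc5a. In tumour, Pdpn ranged from -0.28 to 0.79, Rtkn2 from -0.703 to 0.0069 and Emp2 from -0.20 to 0.29 for CMV-siRE against CMV-scrR, and Pdpn from -0.38 to 0.69 between the siRNA circuits.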
